A study of Homo sapiens with 9 samples.

Results

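The 36 G2 and mitosis genes described here encode proteins that take a cell from the end of DNA replication through chromosome segregation to division. They were taken from the table of counts by gene symbol, as a named list that was drawn up with earlier results of these data known, and all 36 were found among the 17911 genes listed. Every culture is labelled MDA-MB-231, a long-established human line of triple-negative breast cancer. The series lists 3 capsules and 6 spheroids grown by liquid overlay, of which 3 are called small and 3 large, and the title sets small spheroids beside capsules. Every sample, capsules included, carries the same description: wild type, RPMI medium with 10% fetal bovine serum, 5% Matrigel after treatment with trastuzumab, an antibody to the receptor ERBB2, and 96 h of incubation before RNA was taken. No sample without trastuzumab is described. The 3 capsule columns each matched 1 sample. The 6 spheroid columns form 2 sets of 3 by name, L.O and Sph.WT, and the names give no size, so neither set is called small or large. The labels do not say that replicates came from separate cultures, so p-values measure the spread between these libraries, which may be technical.

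As background, entry into mitosis is driven by CDK1 bound to cyclin B, after CDC25 phosphatases remove its inhibitory phosphates. Polo-like and Aurora kinases build the spindle and join kinetochores, the protein plates on centromeres, to its microtubules. The spindle checkpoint holds back the anaphase-promoting complex and its activator CDC20 until every chromosome is attached. That ubiquitin ligase then marks securin and the B cyclins for destruction, and separase cuts the cohesin that holds sister chromatids together. The transcripts of most of these genes are low in resting and G1 cells and peak in G2 and mitosis. Their promoters are bound by the DREAM repressor complex and by MYBL2 and FOXM1 complexes at a short element called the cell cycle homology region, and many also hold CCAAT boxes bound by NF-Y.

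The promoters of the genes shared such letters, which the choice of the genes did not use. RefSeq windows on GRCh38.p14, each from 250 bases before to 50 after an annotated start, were held for 30 of the 36 genes, in 36 windows. UBE2C, BIRC5, BUB3, TTK, AURKA and TPX2 had no entry in that table. Both strands were searched for TTTGAA or TTCGAA, the letters of the cell cycle homology region, and for CCAAT. At least 1 window held TTTGAA or TTCGAA for 22 of the 30 genes (73.3%), against 15.8% of the 13502 tested genes with a window and 19.5% of all 27305 genes of the table. CCAAT was held by 24 of the 30 (80%), against 42.1% of the tested genes and 39.7% of all. Both motifs were held by 18 genes (60%), against 8.27% of the tested genes, and 2 genes (6.67%) held neither, against 50.3%. Overlapping matches were each counted, and a match of letters is not a measured binding site.

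The 250 bases before the start are printed for 6 genes, 5′ to 3′ on the gene's strand, with letters of either motif, on either strand, in capitals. MAD2L1 (chr4:120066849-120067098, minus strand), CDC20 (chr1:43358731-43358980, plus strand), KIF20A (chr5:138178862-138179111, plus strand) and KIF2C (chr1:44739587-44739836, plus strand) are shown because capsule and L.O libraries differed in them, in 1 direction for each gene, under every scaling tried. HMMR (chr5:163460382-163460631, plus strand) and ANLN (chr7:36389612-36389861, plus strand) are shown because they differed most from the Sph.WT libraries, in opposite directions.
MAD2L1: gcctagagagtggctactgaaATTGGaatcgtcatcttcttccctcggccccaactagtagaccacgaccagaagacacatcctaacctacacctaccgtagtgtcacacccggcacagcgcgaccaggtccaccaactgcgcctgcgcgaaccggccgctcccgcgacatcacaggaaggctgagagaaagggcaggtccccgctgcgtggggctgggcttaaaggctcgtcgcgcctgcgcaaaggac
CDC20: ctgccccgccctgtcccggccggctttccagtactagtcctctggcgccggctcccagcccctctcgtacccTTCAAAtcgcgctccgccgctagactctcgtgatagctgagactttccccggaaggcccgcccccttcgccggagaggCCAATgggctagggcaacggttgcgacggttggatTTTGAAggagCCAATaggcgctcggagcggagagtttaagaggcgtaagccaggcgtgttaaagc
KIF20A: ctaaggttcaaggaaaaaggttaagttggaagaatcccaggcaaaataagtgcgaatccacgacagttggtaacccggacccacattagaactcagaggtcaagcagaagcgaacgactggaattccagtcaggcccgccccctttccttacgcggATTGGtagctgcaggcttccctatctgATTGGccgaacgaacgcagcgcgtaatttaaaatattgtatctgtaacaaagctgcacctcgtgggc
KIF2C: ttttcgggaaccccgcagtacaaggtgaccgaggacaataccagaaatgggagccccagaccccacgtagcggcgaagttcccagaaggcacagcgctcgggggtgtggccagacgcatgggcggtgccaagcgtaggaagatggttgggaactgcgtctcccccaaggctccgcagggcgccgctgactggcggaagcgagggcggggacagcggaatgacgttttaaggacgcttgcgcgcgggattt
HMMR: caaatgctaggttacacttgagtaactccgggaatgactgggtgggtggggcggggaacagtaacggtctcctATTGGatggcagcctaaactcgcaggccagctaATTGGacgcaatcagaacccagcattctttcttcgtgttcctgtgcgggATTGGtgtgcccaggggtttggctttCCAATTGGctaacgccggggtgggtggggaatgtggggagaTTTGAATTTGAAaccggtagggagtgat
ANLN: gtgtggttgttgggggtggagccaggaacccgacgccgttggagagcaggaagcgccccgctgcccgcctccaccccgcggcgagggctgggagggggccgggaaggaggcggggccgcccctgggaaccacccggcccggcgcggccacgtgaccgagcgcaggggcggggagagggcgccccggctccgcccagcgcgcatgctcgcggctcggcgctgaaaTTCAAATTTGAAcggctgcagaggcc
In the CDC20 sequence the homology letters begin 178 and 65 bases before the start, and a CCAAT lies 100 and 55 bases before it. Both HMMR and ANLN hold a pair of homology matches at 28 and 22 bases before the start in HMMR and at 26 and 20 in ANLN, and HMMR also has 5 CCAAT matches where ANLN has none. MAD2L1 has 1 CCAAT here, and its TTTGAA lies after the start, outside the printed stretch. KIF20A has 2 CCAAT matches without homology letters, and KIF2C has neither motif in this window.

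The libraries held 13212665 to 33263076 counts each, and 3 counts, the limit that a count of 0 allows, were worth 0.0902 to 0.227 CPM (counts per 1000000 counts), far below the lowest member value of 9.40 CPM. These limits cover counting error only. Library profiles did not all go with the cell line label. The 9 listed markers of MDA-MB-231 summed to 546 to 553 CPM in capsule libraries and 610 to 718 CPM in L.O libraries, against 5418 to 5745 CPM in Sph.WT libraries. VIM and MSN made up most of the capsule and L.O sums, and every listed marker was highest in Sph.WT libraries. CD44 lay at 1.91 to 5.23 CPM in capsule and L.O libraries, against 956 to 1087 CPM in Sph.WT libraries. AXL lay at 0.490 to 2.96 CPM, against 803 to 816 CPM. CDKN2A and CDKN2B, which are deleted in that line, summed to 470.2 to 555.2 CPM in capsule and 442 to 631 CPM in L.O libraries, against 0.780 to 1.38 CPM in Sph.WT libraries. Pearson's r of log2(CPM + 1) over genes, which are not independent replicates, was 0.980 to 0.988 between capsule and L.O libraries, 0.775 to 0.784 between capsule and Sph.WT libraries and 0.763 to 0.782 between L.O and Sph.WT libraries. Column names of capsule and L.O libraries share a style that the Sph.WT names do not. So any difference from the Sph.WT libraries may be one of cell identity, sequencing run or culture, and these cannot be told apart. Markers of immune cells (3 of 5 listed genes analysed here), endothelial cells (3 of 4) and fibroblasts (4 of 5) each summed to at most 121 CPM in any library, and their part in the results was not tested.

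All 36 genes passed the filter on low counts in the fit over 16985 genes, so none was lost from what follows. Together they took 0.559%, 0.550% and 0.581% of counts in capsule libraries, 0.634%, 0.597% and 0.567% in L.O libraries and 0.366%, 0.369% and 0.393% in Sph.WT libraries. The Sph.WT libraries were lowest, with no overlap, and the capsule and L.O ranges overlapped. Levels of different genes were compared per exon length, in TPM, a length-adjusted share of all transcripts. On that scale all 36 genes lay above the median gene in capsule and L.O libraries and 34 did in Sph.WT libraries. The median member stood at percentile 86.3 of all genes in capsule, 86.2 in L.O and 83.3 in Sph.WT libraries.

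The most abundant members per length differed between the sets. In capsule libraries the mean TPM was highest for the ubiquitin-conjugating enzyme UBE2C at 320.3, followed by CCNB1 at 297 and AURKB at 277. AURKB led in L.O libraries at 363 TPM, with UBE2C at 351 and CDC20 at 343. TPM takes no TMM factor, so the order of sets can differ from that in TMM-scaled CPM. UBE2C had a mean of 163 CPM in capsule and 153 CPM in L.O libraries on that scale. In Sph.WT libraries the topoisomerase TOP2A led at 204 TPM, with TPX2 at 186 and CCNB1 at 184. HMMR was the lowest member in Sph.WT libraries at 7.37 TPM, against 37.4 TPM in capsule and 44.8 TPM in L.O libraries. Across the 36 genes Pearson's r of log2 mean TPM was 0.981 between capsule and L.O, 0.771 between capsule and Sph.WT and 0.750 between L.O and Sph.WT libraries. These are given as a description of points that share libraries.

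The title sets small spheroids beside capsules, and the column names do not show which spheroid set is small. Set against all 6 spheroid libraries as 1 group, capsule libraries differed in 1 of the 36 genes. BUB3, a checkpoint protein that docks on kinetochores, was 1.52-fold higher (log2 fold change 0.61, SE 0.128, adjusted p = 0.04097). Over all tested genes 2.3% were called higher and 1.47% lower in capsules, so 1 member in 36 is no more than the background. At an unadjusted p under 0.05 there were 7 members (19.4%), against 29% of all tested genes. DESeq2 called 3 higher (BUB3, CDK1, PTTG1) and 3 lower (AURKA, KIF20A, TPX2), 8.33% each, against 7.15% and 16.5% of all tested genes. The BUB3 call was lost when any 1 of the 9 libraries was left out (log2 fold change 0.55 to 0.65) and under 3 other scalings. The 2 spheroid sets lay far apart, and the capsule range did not overlap the range of the 6 spheroid libraries for 10 genes (27.8%), against 26.6% of all tested genes. The capsule mean was above both set means for 18 genes, between them for 13 and below both for 5. How all tested genes divide in this way was not counted, so this split is not read as particular to the members. The sets are therefore taken 1 at a time below, from 1 fit with 3 levels.

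Between capsule and L.O libraries, which had the most similar profiles, 9 of the 36 genes rose in capsules and 5 fell. CDK1, CCNA2, TTK, BUB1B, BUB3, MAD2L1, PTTG1, KIF11 and KIF23 were called higher, and PLK1, CDC20, ESPL1, KIF20A and KIF2C lower. The share of all tested genes called higher was 22.5% and lower 23%, and 38.9% of the members were called in either direction, against 45.5% of all tested genes. The changes were small, with log2 fold changes between -0.36 (KIF2C) and 0.51 (MAD2L1). The median over the 36 was 0.11, against -0.02 over all tested genes. Ranges of the capsule and L.O libraries did not overlap for 17 genes (47.2%), 10 higher and 7 lower in capsules, against 54.9% of all tested genes, 27.6% higher and 27.3% lower. In these bulk libraries, fewer cells in G2 or mitosis and less RNA per cell cannot be told apart.

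The split between higher and lower depended on the scaling. With TMM it was 9 higher and 5 lower, with DESeq2 size factors 6 and 6, with library totals 4 and 10, and after offsets for GC content and for length of exons (the GC and length correction) 2 and 15. Over all tested genes the same 4 scalings gave 3829 and 3903, 3362 and 4362, 2216 and 5764, and 3284 and 4009. The median over the 36 was 0.11 with TMM, 0.07 with DESeq2 size factors, -0.04 with library totals and -0.08 after the correction. Library totals moved the median of all genes to -0.17. Relative to the all-gene median the members stood at 0.13 with TMM, 0.13 with DESeq2 size factors, 0.13 with library totals and -0.03 after the correction. The 5 genes BUB3, MAD2L1, CDC20, KIF20A and KIF2C were called in 1 direction in all 18 alternatives run for this comparison. BUB3 and MAD2L1 were higher in capsules and CDC20, KIF20A and KIF2C lower. How many of all tested genes kept their call in this way was not counted. Of the 22 genes not called with TMM, 12 were called lower in capsules after the correction (AURKA, AURKB, NEK2, BUB1, CENPA, CENPF, NUF2, NDC80, TPX2, HMMR, DLGAP5 and TOP2A) and none higher. Of the 14 genes called with TMM, 9 were not called after it. Without the Sph.WT libraries in the fit, 9 genes were called higher and 6 lower.

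**Figure D1:**
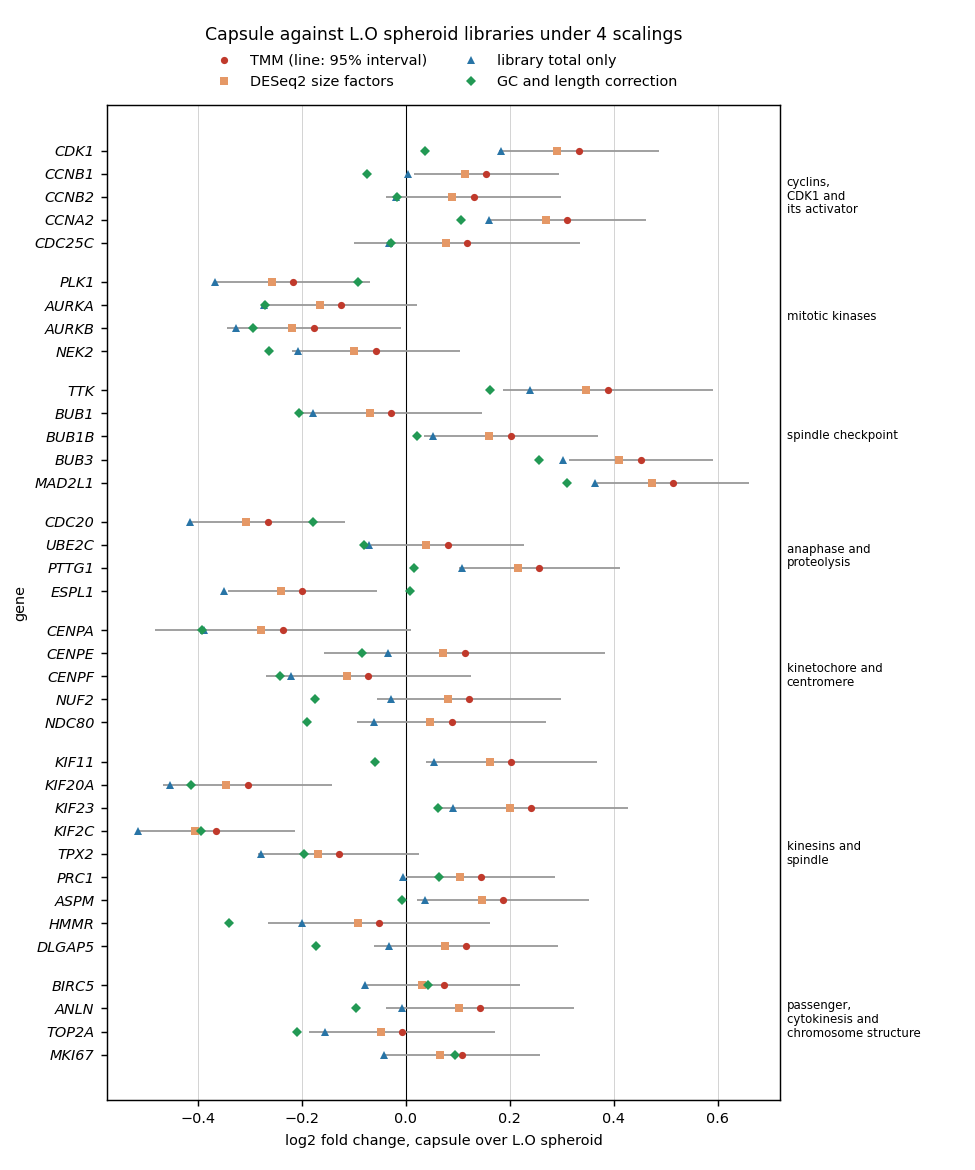
Log2 fold change of capsule over L.O libraries for the 36 genes, grouped by role, under 4 scalings (marker shapes), with 95% intervals for TMM as lines; values right of 0 are higher in capsules. BUB3 and MAD2L1 lie right of 0, and CDC20, KIF20A and KIF2C left of 0, under all 4 scalings, while many others lie on either side.

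Against Sph.WT libraries, 20 of the 36 genes were higher in capsule libraries and 7 lower, beside 43% and 42% of all tested genes. In L.O libraries 18 were higher than in Sph.WT libraries and 9 lower, beside 42.4% and 43.1% of all tested genes. Most tested genes differed between these cultures, and 75% of members were called in each comparison, against 85.03% and 85.5% of all tested genes. The 2 comparisons share the Sph.WT libraries, so their values are set side by side below and are not independent. The median log2 fold change of the members was 0.345 in capsule and 0.19 in L.O libraries, each over Sph.WT, and larger under library totals (0.66 and 0.65) and after the GC and length correction (0.55 and 0.68). Library totals moved the medians of all genes to 0.35 and 0.45. The split for capsules was 20 and 7 with TMM, 21 and 7 with DESeq2 size factors, 29 and 2 with library totals, and 28 and 6 after the correction. For L.O libraries it was 18 and 9, 19 and 6, 31 and 1, and 31 and 2 in the same order. Over all tested genes library totals gave 8742 higher and 5746 lower in capsules and 9349 and 5287 in L.O libraries, and the correction 7315 and 7256 and then 7359 and 7210. In capsules 9 genes not called with TMM were called higher with library totals, and 8 of these (CCNA2, TTK, BUB1, CENPE, KIF11, KIF23, ASPM and TOP2A) also after the correction. In L.O libraries the same held for CDK1, AURKA, BUB1, CENPE, KIF11, KIF20A, KIF23 and TOP2A under both settings. Under all 4 scalings 19 genes were higher in capsules and 2, NDC80 and ANLN, lower, and 18 were higher in L.O libraries and 1, ANLN, lower. The share of all tested genes called in 1 direction under all 4 scalings was not counted, so these counts have no background beside them.

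**Figure D2:**
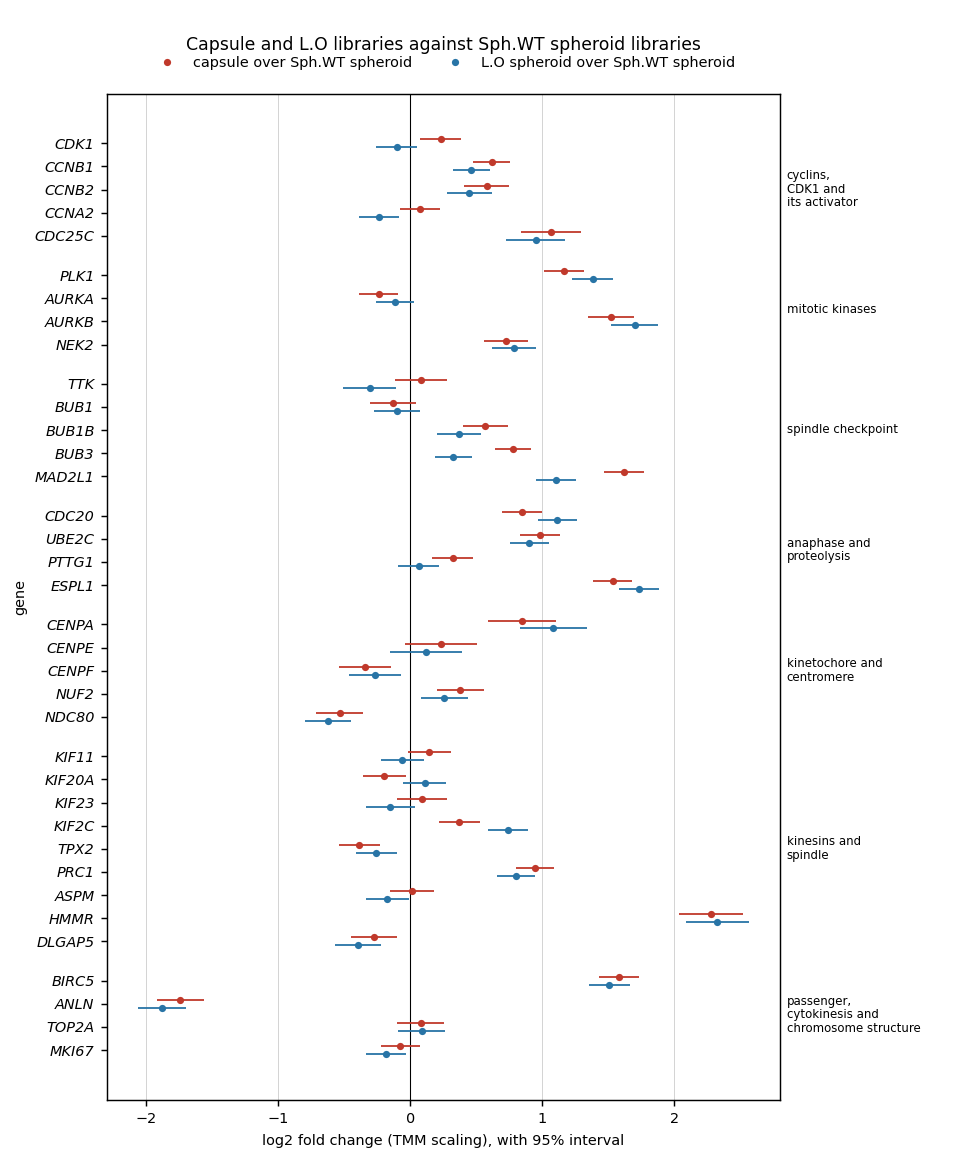
Log2 fold change (TMM scaling) with 95% interval for the 36 genes, grouped by role, for capsule over Sph.WT and L.O over Sph.WT libraries; both sets of points use the same 3 Sph.WT libraries. HMMR lies farthest right (2.27 for capsules and 2.33 for L.O) and ANLN farthest left (-1.74 and -1.88).

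Among the cyclins and CDK1, the cyclin B genes were higher in both capsule and L.O libraries than in Sph.WT libraries, and CDK1 and CCNA2 separated capsule from L.O libraries. CDK1, the kinase that drives entry into mitosis, stood at 125, 111 and 111 CPM in capsule libraries, 93.9, 89.4 and 90.9 CPM in L.O libraries and 94.5, 98.6 and 103 CPM in Sph.WT libraries. Its capsule libraries lay above all others, and with TMM the L.O libraries lay just below the Sph.WT libraries (log2 fold change -0.10, adjusted p = 0.192). That order turned with library totals (0.36, adjusted p = 9.81e-05) and after the GC and length correction (0.51, adjusted p = 7.96e-08). The capsule over L.O difference was 1.26-fold (log2 fold change 0.33, SE 0.0741, adjusted p = 9.08e-04), and it was lost after the GC and length correction (log2 fold change 0.04). CCNA2, cyclin A2, which acts in S phase and early mitosis, stood at 124, 118 and 116 CPM in capsule libraries, 102, 91.8 and 93.6 CPM in L.O libraries and 112, 111 and 119 CPM in Sph.WT libraries. It was 1.24-fold higher in capsule than in L.O libraries (log2 fold change 0.31, SE 0.0728, adjusted p = 0.00144), a call lost with library totals and after the correction, and its capsule and Sph.WT ranges overlapped. CCNB1, cyclin B1, the main partner of CDK1, stood at 252, 265 and 248 CPM in capsule libraries, 239, 224 and 221 CPM in L.O libraries and 164, 169.7 and 166 CPM in Sph.WT libraries. The 3 sets did not overlap, with log2 fold changes over Sph.WT of 0.61 (SE 0.0679, adjusted p = 1.56e-08) in capsules and 0.46 (SE 0.0677, adjusted p = 1.36e-06) in L.O libraries. Capsule over L.O gave 0.15 (adjusted p = 0.0649), which did not pass. CCNB2, cyclin B2, lay at 58.6 to 61.0 CPM in capsule, 49.3 to 59.1 CPM in L.O and 38.6 to 41.1 CPM in Sph.WT libraries, and CDC25C, the phosphatase that activates CDK1, at 24.1 to 27.2 CPM in capsule, 21.3 to 25.5 CPM in L.O and 10.8 to 12.97 CPM in Sph.WT libraries. Both passed the test against Sph.WT libraries in capsule and L.O libraries, with CDC25C 2.09-fold and 1.93-fold higher, and neither passed between capsule and L.O libraries.

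The mitotic kinases divided by family member. PLK1, polo-like kinase 1, stood at 182, 199 and 174 CPM in capsule libraries, 208, 224 and 211 CPM in L.O libraries and 84.98, 83.4 and 79.9 CPM in Sph.WT libraries. It was lowest in Sph.WT libraries and highest in L.O libraries, with no overlap between sets. Capsules were below L.O libraries by 1.16-fold (log2 fold change -0.22, SE 0.0716, adjusted p = 0.0168), a call lost without capsule replicate 1, capsule replicate 3 or L.O replicate 2, and after the GC and length correction. Over Sph.WT libraries PLK1 was 2.24-fold higher in capsules (adjusted p = 7.29e-13) and 2.602-fold higher in L.O libraries (adjusted p = 2.69e-14). AURKB, the kinase of the chromosomal passenger complex, stood at 139, 153 and 140.3 CPM in capsule libraries, 160.2, 160.3 and 167 CPM in L.O libraries and 57.8, 47.1 and 46.3 CPM in Sph.WT libraries. It was 2.87-fold higher in capsules than in Sph.WT libraries (adjusted p = 6.52e-14) and 3.25-fold higher in L.O libraries (adjusted p = 7.36e-15). The log2 fold changes, 1.52 and 1.70 with TMM, were 0.72 and 1.02 after the GC and length correction, and both calls held. AURKA, the related kinase of centrosomes and spindle poles, instead stood at 109.9, 105 and 111 CPM in capsule libraries, 123, 113 and 118 CPM in L.O libraries and 124, 130.1 and 132 CPM in Sph.WT libraries. It was lowest in capsules and highest in Sph.WT libraries, with a capsule over Sph.WT log2 fold change of -0.24 (SE 0.0703, adjusted p = 0.00307) that turned to 0.07 with library totals. NEK2, a kinase that parts centrosomes, lay at 54.2 to 59.6 CPM in capsule, 54.98 to 60.5 CPM in L.O and 33.5 to 34.5 CPM in Sph.WT libraries. It passed the test against Sph.WT libraries in capsules (log2 fold change 0.73) and in L.O libraries (0.79), with overlapping capsule and L.O ranges.

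The spindle checkpoint held the clearest rises in capsules over L.O libraries, with 4 of its 5 genes called higher with TMM and none lower. MAD2L1 (chr4:120055623-120066848), which encodes the MAD2 protein that captures CDC20 while chromosomes are unattached, stood at 172, 172 and 174 CPM in capsule libraries, 128, 115 and 119 CPM in L.O libraries and 54.1, 55.8 and 59.3 CPM in Sph.WT libraries. The 3 sets were ordered capsule, L.O and Sph.WT with wide gaps. MAD2L1 was 1.43-fold higher in capsule than in L.O libraries (log2 fold change 0.51, SE 0.0708, adjusted p = 5.11e-06). Over Sph.WT libraries it was 3.07-fold higher in capsules (log2 fold change 1.62, SE 0.0736, adjusted p = 1.33e-15) and 2.15-fold higher in L.O libraries (log2 fold change 1.10, SE 0.0731, adjusted p = 1.57e-12), with 1.78 in L.O libraries after the GC and length correction. BUB3 (chr10:123154402-123170467) stood at 374, 390.3 and 380.5 CPM in capsule libraries, 278, 273 and 282 CPM in L.O libraries and 212, 227 and 231 CPM in Sph.WT libraries. Its order was the same, and capsules were 1.37-fold above L.O libraries (log2 fold change 0.45, SE 0.0668, adjusted p = 1.21e-05). Over Sph.WT libraries the L.O log2 fold change was 0.33 with TMM and 1.05 after the GC and length correction. BUB1B, which encodes BUBR1, an inhibitor of the anaphase-promoting complex, stood at 87.3, 92.8 and 93.2 CPM in capsule libraries, 79.5, 81.7 and 75.4 CPM in L.O libraries and 54.1, 65.8 and 64.7 CPM in Sph.WT libraries. Its capsule over L.O rise was small (log2 fold change 0.20, SE 0.0808, adjusted p = 0.0457) and passed in 3 of the 9 fits that leave out 1 library and under none of the 3 other scalings. TTK, the kinase MPS1 at the head of the checkpoint, lay at 36.4 to 43.01 CPM in capsule, 28.4 to 33.95 CPM in L.O and 34.9 to 41.5 CPM in Sph.WT libraries. Its capsule over L.O log2 fold change was 0.39 (SE 0.0975, adjusted p = 0.00253) and 0.16 after the GC and length correction. The test did not pass after that correction. The kinase BUB1, which recruits the other checkpoint proteins, was at 103 to 108 CPM in capsule, 94.3 to 120.5 CPM in L.O and 107 to 123 CPM in Sph.WT libraries, with overlapping ranges in every comparison on the TMM scale. Over Sph.WT libraries BUB1 was called higher after the correction, with log2 fold changes of 0.20 in capsules and 0.41 in L.O libraries, against -0.13 and -0.10 with TMM. After the correction the group had 2 genes called higher and 1 lower.

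The genes of anaphase and proteolysis moved in different directions between capsule and L.O libraries. CDC20 (chr1:43358981-43363203), the activator of the anaphase-promoting complex and the target of MAD2, stood at 174, 190.5 and 169 CPM in capsule libraries, 209, 214 and 216 CPM in L.O libraries and 104, 94.3 and 99.8 CPM in Sph.WT libraries. Capsule libraries lay between the others, 1.202-fold below L.O libraries (log2 fold change -0.27, SE 0.0712, adjusted p = 0.00417) and 1.799-fold above Sph.WT libraries (log2 fold change 0.85, SE 0.0726, adjusted p = 1.87e-10). ESPL1, separase, stood at 142, 151 and 147 CPM in capsule libraries, 173, 171 and 159 CPM in L.O libraries and 51.6, 51.5 and 49.4 CPM in Sph.WT libraries. It had the order of CDC20, with capsules below L.O libraries (log2 fold change -0.20, SE 0.0689, adjusted p = 0.02196) and 2.89-fold above Sph.WT libraries (adjusted p = 2.72e-15). The capsule over L.O call of ESPL1 was lost in 4 of the 9 fits that leave out 1 library, and its log2 fold change was 0.01 after the GC and length correction. PTTG1, securin, the inhibitor of separase, stood at 77.4, 76.2 and 75.9 CPM in capsule libraries, 68.3, 62.4 and 60.5 CPM in L.O libraries and 61.5, 60.8 and 62.1 CPM in Sph.WT libraries. All capsule libraries lay above all spheroid libraries, 1.195-fold over L.O libraries (log2 fold change 0.26, SE 0.0744, adjusted p = 0.00735) and 1.25-fold over Sph.WT libraries (log2 fold change 0.32, SE 0.0745, adjusted p = 4.30e-04). The capsule over L.O call was lost with library totals and after the GC and length correction. After that correction the difference from Sph.WT libraries turned to -0.26. As a separate limit on all PTTG1 values, the gene has near-identical copies in the genome whose reads the counting could have split, which was not tested. UBE2C, the ubiquitin-conjugating partner of the complex, lay at 152 to 171 CPM in capsule, 148 to 159 CPM in L.O and 81.2 to 84.1 CPM in Sph.WT libraries. It passed against Sph.WT libraries in capsules (log2 fold change 0.98) and in L.O libraries (0.90), with 0.30 and 0.38 after the GC and length correction, and its capsule and L.O ranges overlapped.

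No kinetochore or centromere gene passed between capsule and L.O libraries with TMM, whereas the genes split in both directions against Sph.WT libraries. NUF2 and NDC80 encode a pair of subunits that bind each other in the NDC80 complex, the microtubule anchor of the kinetochore. NUF2 stood at 52.3, 50.1 and 54.5 CPM in capsule libraries, 52.4, 45.4 and 45.8 CPM in L.O libraries and 37.6, 40.05 and 43.3 CPM in Sph.WT libraries. NDC80 stood at 37.3, 31.6 and 36.5 CPM in capsule libraries, 34.1, 31.2 and 33.5 CPM in L.O libraries and 50.01, 51.2 and 51.8 CPM in Sph.WT libraries. Of these partners NUF2 was higher than in Sph.WT libraries and NDC80 lower. In capsules NUF2 gave a log2 fold change of 0.38 (SE 0.0862, adjusted p = 3.28e-04) and NDC80 one of -0.53 (SE 0.0858, adjusted p = 4.79e-06). In L.O libraries the values were 0.26 (adjusted p = 0.00806) for NUF2, lost without L.O replicate 1 and 0.87 after the GC and length correction, and -0.62 (adjusted p = 4.32e-07) for NDC80, lost with library totals and after that correction. CENPA, the histone H3 variant of centromeres, lay at 21.5 to 28.1 CPM in capsule, 24.2 to 33.3 CPM in L.O and 12.99 to 14.5 CPM in Sph.WT libraries. It was 1.797-fold higher in capsules and 2.12-fold higher in L.O libraries than in Sph.WT libraries. CENPF, a large kinetochore protein, lay at 244 to 296 CPM in capsule, 236 to 324 CPM in L.O and 314 to 354 CPM in Sph.WT libraries. Its log2 fold changes over Sph.WT libraries, -0.34 in capsules and -0.27 in L.O libraries, turned to 0.12 and 0.36 after the correction. CENPE, the kinetochore kinesin, lay at 61.4 to 98.98 CPM in capsule, 59.1 to 86.5 CPM in L.O and 63.1 to 71.9 CPM in Sph.WT libraries, with overlap in every comparison on the TMM scale and the widest replicate spread of the members in capsule and L.O libraries. Its log2 fold changes over Sph.WT libraries, 0.23 in capsules and 0.12 in L.O libraries with TMM, did not pass. They were 0.55 and 0.58 with library totals and 0.76 and 0.85 after the correction, and these 4 values passed.

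The largest difference among the spindle genes was that of HMMR. HMMR (chr5:163460632-163491941), a microtubule-binding partner of TPX2 at spindle poles, stood at 50.4, 42.7 and 52.4 CPM in capsule libraries, 57.7, 47.3 and 45.2 CPM in L.O libraries and 9.403, 9.48 and 11.5 CPM in Sph.WT libraries. The lowest capsule library, at 42.7 CPM, lay well above the highest Sph.WT library, at 11.5 CPM. The differences from Sph.WT libraries were 4.84-fold in capsules (log2 fold change 2.27, SE 0.118, adjusted p = 1.58e-14) and 5.01-fold in L.O libraries (log2 fold change 2.33, SE 0.117, adjusted p = 8.21e-15), and after the GC and length correction the log2 fold changes were 2.70 and 3.04. TPX2, which activates AURKA on the spindle, stood instead at 213, 219.8 and 210.4 CPM in capsule libraries, 254, 239 and 208 CPM in L.O libraries and 279.7, 289 and 275 CPM in Sph.WT libraries. Its log2 fold changes over Sph.WT libraries were -0.39 in capsules (adjusted p = 5.01e-05) and -0.26 in L.O libraries (adjusted p = 0.00272), and with library totals they were -0.08 and 0.20. PRC1, which bundles microtubules of the central spindle, stood at 324, 307 and 311 CPM in capsule libraries, 305, 270.4 and 273 CPM in L.O libraries and 161, 166 and 163 CPM in Sph.WT libraries. It was 1.93-fold higher in capsules (adjusted p = 1.28e-11) and 1.74-fold higher in L.O libraries (adjusted p = 2.38e-10) than in Sph.WT libraries.

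Of the motor genes, 2 fell and 2 rose in capsules over L.O libraries with TMM. KIF2C (chr1:44739837-44767767), the kinesin that takes microtubules apart at centromeres, stood at 103, 105 and 99.96 CPM in capsule libraries, 142, 130.5 and 123 CPM in L.O libraries and 78.7, 81.6 and 78.3 CPM in Sph.WT libraries. Capsules were 1.29-fold below L.O libraries (log2 fold change -0.36, SE 0.0727, adjusted p = 3.18e-04) and 1.29-fold above Sph.WT libraries (log2 fold change 0.37, SE 0.0737, adjusted p = 7.24e-05). KIF20A (chr5:138179112-138187723), a kinesin of the central spindle, stood at 73.4, 68.8 and 71.7 CPM in capsule libraries, 95.2, 87.5 and 80.4 CPM in L.O libraries and 82.2, 78.5 and 85.4 CPM in Sph.WT libraries. Its capsule libraries were the lowest, 1.24-fold below L.O libraries (log2 fold change -0.30, SE 0.0783, adjusted p = 0.00302). Against Sph.WT libraries the capsule log2 fold change was -0.20 (adjusted p = 0.0235) and turned to 0.11 with library totals. KIF11, the motor that pushes spindle poles apart, lay at 131 to 150.0 CPM in capsule, 112 to 132 CPM in L.O and 123 to 137 CPM in Sph.WT libraries, and KIF23, a kinesin of the cytokinesis machinery, at 105 to 115 CPM in capsule, 81.3 to 105 CPM in L.O and 91.7 to 110.0 CPM in Sph.WT libraries. Their capsule over L.O values were 0.20 for KIF11 (adjusted p = 0.0408) and 0.24 for KIF23 (adjusted p = 0.0338), and each call was lost in 4 of the 9 fits that leave out 1 library and under all 3 other scalings. ASPM, a spindle pole protein, lay at 136 to 158 CPM in capsule, 118 to 138 CPM in L.O and 134 to 152 CPM in Sph.WT libraries, and DLGAP5, a microtubule-stabilising protein, at 70.4 to 82.9 CPM in capsule, 63.8 to 78.6 CPM in L.O and 91.4 to 93.4 CPM in Sph.WT libraries. DLGAP5 was lower than in Sph.WT libraries in capsules (log2 fold change -0.28) and L.O libraries (-0.39) with TMM, and the sign turned after the GC and length correction (0.14 and 0.31). ASPM had a log2 fold change of -0.17 in L.O over Sph.WT libraries (adjusted p = 0.0468), which 5 of the 9 fits that leave out 1 library did not call.

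In the last group, ANLN and BIRC5 stood at opposite ends, and the differences of the proliferation markers TOP2A and MKI67 depended on the scaling. ANLN (chr7:36389862-36453791), anillin, the scaffold of the contractile ring, stood at 101, 93.99 and 103 CPM in capsule libraries, 101, 89.1 and 78.8 CPM in L.O libraries and 306, 338 and 357 CPM in Sph.WT libraries. It was 3.34-fold lower in capsules (log2 fold change -1.74, SE 0.0875, adjusted p = 8.84e-15) and 3.69-fold lower in L.O libraries (log2 fold change -1.88, SE 0.0875, adjusted p = 1.90e-15) than in Sph.WT libraries, with -1.28 in L.O libraries after the GC and length correction. BIRC5, survivin, a passenger complex subunit, stood at 248, 239 and 235 CPM in capsule libraries, 228, 231 and 225 CPM in L.O libraries and 86.1, 74.3 and 81.96 CPM in Sph.WT libraries. It was 2.99-fold higher in capsules (log2 fold change 1.58, SE 0.0735, adjusted p = 2.03e-15) and 2.84-fold higher in L.O libraries (log2 fold change 1.51, SE 0.0732, adjusted p = 4.42e-15) than in Sph.WT libraries. TOP2A, which untangles sister DNA, stood at 506, 483 and 561 CPM in capsule libraries, 592, 509 and 449.6 CPM in L.O libraries and 475, 477 and 519 CPM in Sph.WT libraries. With TMM its ranges overlapped in every comparison, and the 95% interval of the log2 fold change was -0.19 to 0.17 for capsule over L.O, -0.10 to 0.26 for capsule over Sph.WT and -0.09 to 0.26 for L.O over Sph.WT libraries. Over Sph.WT libraries TOP2A was called higher with library totals, by 0.39 in capsules and 0.55 in L.O libraries, and after the GC and length correction, by 0.55 (adjusted p = 1.72e-07) and 0.76 (adjusted p = 1.05e-09). Capsule over L.O gave -0.21 after the correction (adjusted p = 0.0166). MKI67, the Ki-67 protein that coats mitotic chromosomes, stood at 469.5, 444 and 489.6 CPM in capsule libraries, 462, 438 and 397 CPM in L.O libraries and 471, 514 and 497 CPM in Sph.WT libraries. The interval for capsule over L.O was -0.04 to 0.26 and for capsule over Sph.WT -0.23 to 0.07, where library totals gave 0.24 (adjusted p = 0.00394). L.O libraries gave -0.18 over Sph.WT libraries (adjusted p = 0.0228), lost without L.O replicate 3 or Sph.WT replicate 2, and 0.28 with library totals. That call was also lost with DESeq2 size factors (-0.11, adjusted p = 0.1365) and after the GC and length correction (-0.02, adjusted p = 0.7534).

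Ratios of counts within a library do not depend on how libraries are scaled, although they can still depend on GC content. The pairs below were chosen after their values were seen and are given as descriptions. MAD2L1 over CDC20, the checkpoint protein over its target, was 0.989, 0.902 and 1.03 in capsule libraries, 0.611, 0.537 and 0.550 in L.O libraries and 0.522, 0.592 and 0.595 in Sph.WT libraries. Capsules were higher than both spheroid sets, which overlapped. PTTG1 over ESPL1, securin over separase, was 0.543, 0.505 and 0.516 in capsule libraries, 0.395, 0.364 and 0.3799 in L.O libraries and 1.19, 1.18 and 1.26 in Sph.WT libraries. The 3 sets did not overlap, and the L.O libraries were lowest. AURKA over AURKB was 0.790, 0.686 and 0.788 in capsule libraries, 0.766, 0.704 and 0.707 in L.O libraries and 2.14, 2.76 and 2.85 in Sph.WT libraries. NUF2 over NDC80 was 1.402, 1.58 and 1.49 in capsule libraries, 1.54, 1.45 and 1.37 in L.O libraries and 0.752, 0.783 and 0.836 in Sph.WT libraries. In both of these pairs the capsule and L.O libraries overlapped and the Sph.WT libraries stood apart. ANLN over PRC1 was 0.313, 0.306 and 0.332 in capsule libraries, 0.333, 0.3295 and 0.288 in L.O libraries and 1.901, 2.04 and 2.19 in Sph.WT libraries, with the Sph.WT libraries again apart. CCNB1 over CCNB2 was 4.13, 4.53 and 4.17 in capsule libraries, 4.04, 4.104 and 4.49 in L.O libraries and 4.001, 4.203 and 4.299 in Sph.WT libraries, and here all 3 sets overlapped.

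The G2 and mitosis genes were set beside 35 genes of S phase and DNA replication, which act just before them in the cycle. The 36 G2 and mitosis genes summed to 3943, 3932 and 4074 TPM in capsule libraries, 4727, 4561 and 4272 TPM in L.O libraries and 2725, 2788 and 2920 TPM in Sph.WT libraries. TPM takes no TMM factor, and in TMM-scaled CPM the order of the capsule and L.O means turned. The mean sums were then 5429 CPM in capsule, 5183 CPM in L.O and 4509 CPM in Sph.WT libraries, with overlapping capsule and L.O ranges. The S phase genes summed to 4758, 4915 and 4913 TPM in capsule libraries, 4715, 4678 and 4502 TPM in L.O libraries and 2203, 2225 and 2164 TPM in Sph.WT libraries. The ratio of the sums was 0.819 ± 0.0168 in capsule, 0.976 ± 0.0268 in L.O and 1.28 ± 0.0607 in Sph.WT libraries (SD, n = 3 each), and the 3 sets did not overlap. With medians in place of sums the means were 0.689 in capsule, 0.778 in L.O and 1.40 in Sph.WT libraries, and the capsule and L.O ranges then overlapped. The ratio is free of library scaling, but it can still depend on GC content, and it was not computed after the GC and length correction. Relative to the all-gene median, L.O over Sph.WT stood at 0.91 for the S phase genes and 0.20 for the members with TMM. After that correction these were 0.82 and 0.65. No p is given, because the score is made of the chosen genes.

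**Figure D3:**
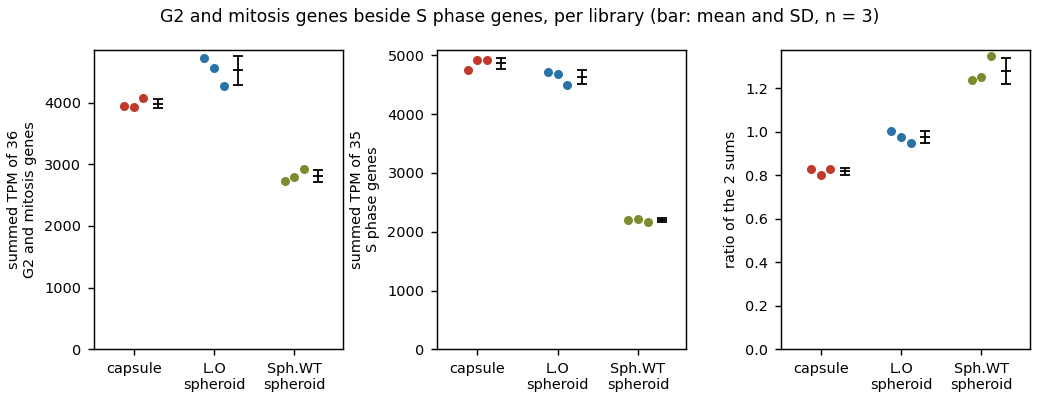
Summed TPM of the 36 G2 and mitosis genes, summed TPM of 35 S phase genes and the ratio of these sums, in each capsule, L.O and Sph.WT library; points are libraries, and the black bar is the mean with its SD (n = 3). Ratios, without the GC and length correction, are lowest in capsules (0.800 to 0.829) and highest in Sph.WT libraries (1.237 to 1.349).

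Other cell cycle genes were counted in 8 lists of 182 genes, all found. Between capsule and L.O libraries 24 of 35 S phase genes rose in capsules and 2 fell. Across the other 3 scalings these counts were 23 and 2, 17 and 3, and 26 and 0. Of 18 genes of the anaphase-promoting complex and its regulators 13 rose and none fell, of 19 condensin, cohesin and shugoshin genes 13 rose and 1 fell, and of 30 further kinetochore genes 15 rose and 2 fell. Those 3 lists kept more genes higher than lower under the other 3 scalings, with 8 and 2, 6 and 2, and 7 and 4 under library totals. Of 29 other spindle, kinesin and cytokinesis genes 6 rose and 7 fell, and under each other scaling more fell than rose. Of 15 controls of mitotic entry 6 rose and 3 fell, of 23 cell cycle transcription factors 12 rose and 2 fell (4 and 5 with library totals), and of 13 CDK inhibitors and D cyclins 4 rose and 6 fell. The all-gene background for these counts is the 22.5% higher and 23% lower given above.

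Against Sph.WT libraries 33 of 35 S phase genes were higher in capsules and 2 lower, and 28 were higher in L.O libraries and 4 lower. The all-gene background is 43% higher and 42% lower in capsules and 42.4% and 43.1% in L.O libraries, so most genes of any list are called and a mixed split is near it. Relative to the median of all genes, the S phase list stood at 1.17 in capsules and 0.91 in L.O libraries with TMM, beside 0.31 and 0.20 for the G2 and mitosis genes. After the GC and length correction these were 1.07 and 0.82 for the S phase list and 0.52 and 0.65 for the G2 and mitosis genes. The other lists were mixed. The anaphase-promoting complex list had 10 genes higher and 6 lower in capsules and 7 and 10 in L.O libraries, and with library totals the L.O split turned to 8 and 6. Condensin, cohesin and shugoshin genes had 9 higher and 7 lower in capsules and 8 and 10 in L.O libraries, and there the L.O split was 9 and 6 with library totals and 13 and 5 after the GC and length correction. Further kinetochore genes had 12 and 8 in capsules and 12 and 11 in L.O libraries. Other spindle genes had 15 and 10 in capsules and 12 and 8 in L.O libraries, and controls of mitotic entry 8 and 3 and then 8 and 5. Transcription factors had 9 and 8 in capsules and 9 and 12 in L.O libraries, turning to 13 and 6 with library totals and 9 and 8 after the correction. CDK inhibitors and D cyclins had 5 and 8 in capsules and 6 and 5 in L.O libraries, where the correction gave 5 and 6.

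Genes of these lists that passed the test of capsules against all 6 spheroid libraries included inhibitors of the cell cycle. CDKN1A, the p21 inhibitor of cyclin-dependent kinases, stood at 40.01, 45.9 and 39.7 CPM in capsule libraries, 131, 128 and 143 CPM in L.O libraries and 97.6, 70.9 and 86.7 CPM in Sph.WT libraries. CDKN1C, the related p57, stood at 2.28, 2.68 and 2.45 CPM in capsule libraries, 4.86, 6.63 and 8.71 CPM in L.O libraries and 6.89, 7.29 and 5.89 CPM in Sph.WT libraries. For both genes every capsule library lay below every spheroid library, with log2 fold changes of -1.39 (adjusted p = 0.0261) for CDKN1A and -1.44 (adjusted p = 0.02398) for CDKN1C. KIFC1, a kinesin that clusters spindle poles, was also lower (-0.52, adjusted p = 0.0396). Higher in capsules were the replication licensing factor CDC6 (0.74, adjusted p = 0.0299), the ribonucleotide reductase subunit RRM1 (0.61, 0.0232), the CDK1-binding CKS1B (0.68, 0.0364) and CDK4, the kinase of the D cyclins (0.56, 0.0447). ANAPC7, an anaphase-promoting complex subunit, E2F6, a repressor of the E2F family, and PLK4, the kinase of centriole copying, were higher as well, with log2 fold changes of 0.51, 0.61 and 0.40 and adjusted p of 0.0238, 0.0465 and 0.0485. Over all tested genes 2.3% were called higher and 1.47% lower in this comparison. With library totals none of these 10 genes passed against the 6 spheroid libraries. With DESeq2 size factors PLK4, CKS1B, E2F6 and CDK4 did not pass. After the GC and length correction only ANAPC7, CDK4 and CDKN1A passed. Adding replicate number to the fit left 0 genes called. FOXM1 and MYBL2, activators of G2 and mitosis genes, were picked after their values were seen. Between capsule and L.O libraries FOXM1 had a log2 fold change of -0.25 (adjusted p = 0.00653) and MYBL2 one of 0.21 (adjusted p = 0.0377), the second not past the threshold with DESeq2 size factors or library totals.

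The replicate spread of the members was set beside that of all genes above the lowest member value, with no upper limit and no matching by abundance. The median coefficient of variation of the members was 4.94% in capsule, 7.41% in L.O and 4.66% in Sph.WT libraries. Over the 8833 genes whose CPM exceeded the lowest member value in every library it was 5.72%, 6.64% and 6.80%. CENPE was the most variable member, at 23.5% in capsule and 18.7% in L.O libraries, and AURKB in Sph.WT libraries at 12.7%. Of the 36 genes, 21 were lowest in capsule replicate 2, 23 in L.O replicate 3 and 21 in Sph.WT replicate 1. The same counts over all tested genes were not made, so these are not read as particular to the members. GC content of the members moved with the replicate and set differences given next. Only 1 pair of capsule and 1 pair of L.O replicates were examined, each the pair that differed most within its set. No pair of Sph.WT replicates was examined, and r over all genes was not computed. The members had exons of 42.8% GC at the median (35.3% to 57.9%), against 49.6% over the tested genes. Across the 36 genes Pearson's r of GC content with the log2 ratio of 2 capsule replicates (2 over 3) was 0.70, and with that of 2 L.O replicates (3 over 1) 0.50. With the log2 fold change it was -0.58 for capsule over L.O, 0.37 for capsule over Sph.WT and 0.50 for L.O over Sph.WT libraries. CDC20, ESPL1 and PLK1, all lower in capsule than in L.O libraries, were the 3 members richest in GC (57.9%, 57.0% and 57.3%), and MAD2L1 and CDK1, both higher, had 39.4% and 37.0%. Other members lay off this relation, such as HMMR at 36.7% with a log2 fold change of -0.05 and PTTG1 at 49.3% with one of 0.26. How much GC content contributes to the capsule to L.O differences was not tested beyond the correction given above.

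**Figure D4:**
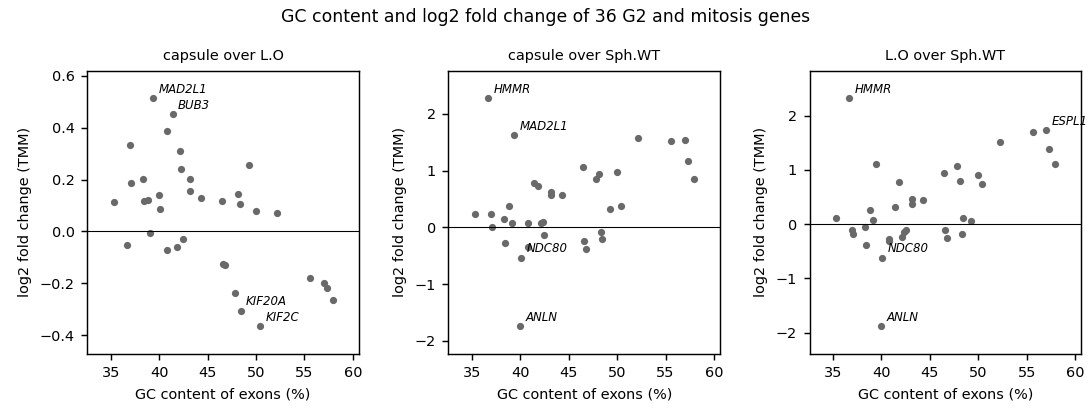
GC content of exons (percent) against log2 fold change (TMM scaling) for the 36 genes in 3 comparisons, each point a gene, with the extreme genes named. The relation slopes down for capsule over L.O (r = -0.58) and up for capsule over Sph.WT (0.37) and L.O over Sph.WT (0.50) libraries.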

How the data were processed

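RNA sequencing counts for 17911 Entrez genes in 9 columns were used as deposited: raw, whole-number read counts that the authors had not normalized. The submitters' processing notes name hg38, featureCounts and limma. Aligner, annotation and strand setting are not given in the sources used here, so overlapping or antisense genes may share reads. Per the labels' protocols, RNA was extracted with TRIzol and libraries followed Illumina's TruSeq protocol.

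Counts were fitted over all genes with edgeR 4.0.16 (quasi-likelihood test, TMM scaling, default filter on low counts, 16985 genes) in R 4.3.3. P-values were adjusted by the Benjamini-Hochberg method over all genes tested, with a threshold of 0.05. The first fit set 3 capsule against 6 spheroid libraries, and a fit with 3 levels took the column sets apart. "Called" means an adjusted p under 0.05, and fold changes are on the log2 scale. CPM values are TMM-scaled. TPM values divide counts by GENCODE 29 exon length (17131 genes) and scale to 1000000, without TMM factors. Coordinates and promoters are RefSeq's, on GRCh38.p14, the assembly that hg38 denotes. The steps were also run on simulated counts, which held no difference between the spheroid sets and no GC bias. That run cannot show how the fits or the GC and length correction behave where these are present. Alternatives used DESeq2 1.42.0, limma 3.58.1, other scalings, a correction by 10 bins of GC content and exon length, and libraries left out. No pair of replicate libraries agreed within counting noise. Other steps used Python 3.11.15, numpy 2.4.6 and pandas 2.3.3.

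The members and lists were chosen with earlier results of these data known. All 36 members were named, with up to 2 genes per direction from each other list among those called in capsules against all spheroids.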

Additional observations from a re-analysis of the deposited data

Results flagged for a closer look

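PTTG1, securin, stood at 68.3 CPM in L.O replicate 1, against 60.5 to 62.4 CPM in the other 5 of the 6 spheroid libraries. The gap from that library to the next was 0.760 of the range of the 6 libraries, past Dixon's 95% limit for a group of 6. Chance alone passes this limit in about 1 group in 20, and 36 genes were examined in this way.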

How the results depend on the processing

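Replicate numbers did not pair the libraries: deviations of same-numbered libraries from their set means correlated between -0.0989 and 0.017. For capsules against all 6 spheroid libraries, 639 genes were called; the count was 359 with library totals, 4023 with DESeq2, 417 after the GC and length correction, 12643 with 3 levels, and 0 with the replicate block, with or without that correction. The members called were 1 higher and 0 lower; they were 0 higher with DESeq2 size factors, library totals, the correction or the replicate block, 3 and 3 with DESeq2, and 22 and 6 with 3 levels. Leaving out 1 library gave 0 to 604 genes called, 0 to 0 members higher, 0 to 0 lower and a median of 0.18 to 0.28.

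For capsule over L.O libraries (9 higher, 5 lower, median 0.11), library totals gave 4, 10 and -0.0386, the correction 2, 15 and -0.0832, and the correction with the replicate block 2, 15 and -0.0856; the block alone gave 6 and 5. Leaving out 1 library gave 6426 to 8018 genes called, 6 to 12 members higher, 3 to 6 lower and medians of 0.06 to 0.17. For capsule over Sph.WT libraries (20, 7), library totals gave 2 lower and a median of 0.66, the correction with or without the block one of 0.55, and leave-one-out fits 14194 to 14688 genes, 19 to 22 higher, 6 to 7 lower and 0.32 to 0.37. For L.O over Sph.WT libraries (18, 9), library totals gave 31, 1 and 0.65, the correction with or without the block 31, 2 and 0.68, and leave-one-out fits 14312 to 14760 genes, 17 to 19 higher, 6 to 11 lower and 0.12 to 0.27.

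Single genes turned sign, each value being a log2 fold change. For capsule over L.O libraries, the correction gave 0.00757 for ESPL1 and -0.0587 for KIF11, and 0.00832 and -0.0588 with the replicate block. For capsule over Sph.WT libraries, library totals gave 0.0717 for AURKA, 0.11 for KIF20A and 0.0360 for DLGAP5, and the correction, with or without the block, -0.26 and -0.25 for PTTG1, 0.12 for CENPF and 0.14 for DLGAP5. For L.O over Sph.WT libraries, library totals gave 0.22 for CCNA2, 0.16 for TTK, 0.19 for CENPF, 0.20 for TPX2, 0.29 for ASPM, 0.0690 for DLGAP5 and 0.28 for MKI67. The correction there gave 0.20 for CCNA2, 0.38 for TTK, 0.36 for CENPF, 0.56 for ASPM and 0.31 for DLGAP5, and with the block 0.20, 0.37, 0.36, 0.56 and 0.31. The cause of these changes was not tested.

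The ratio of summed TPM ranged from 0.814 to 0.829 in capsule, 0.962 to 0.989 in L.O and 1.245 to 1.301 in Sph.WT libraries with 1 library left out, and medians in place of sums gave 0.689, 0.778 and 1.40. Every member lay far above the limit that a count of 0 allows.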
